A study of Homo sapiens with 33 samples.

Results

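The IER5 tiles are the oligonucleotides of the PUM2 pool whose tile name carries the gene symbol IER5 before the colon. There are 53 such tiles, each present with 22 barcodes, which makes 1166 of the 35178 tile and barcode combinations of the pool and 53 of its 1599 tiles. A tile is a designed stretch of a source RNA, and a barcode is a tag that marks separate oligonucleotides carrying the same tile. The pool covers 23 source RNAs, of which 22 are mRNAs and the other is the noncoding RNA NORAD. Tile numbers are used below as names in the order the authors gave them; tile sequences and their places in the IER5 mRNA were not used here.

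The pool was transfected into HEK293T, a human embryonic kidney cell line. No protein was overexpressed, so the antibody acted on the PUM2 that these cells make themselves. Cells were collected after 48 hours and fixed for 10 minutes in 0.1% formaldehyde, with glycine given at 125 mM. Reads were counted in 3 anti-PUM2 immunoprecipitates and 3 Input libraries, called A, B and C in each group after the authors' column names. The PUM2 samples hold immunoprecipitate and Input only, so recovery with PUM2 and recovery by precipitation in general cannot be told apart.

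PUM2 is a Pumilio-family protein. Pumilio proteins bind short U-rich elements that begin with UGUA, mostly in mRNAs, and are known to lower the stability and translation of many of their targets. IER5 is an immediate early response gene: its transcript appears quickly after growth factors, heat or ionising radiation, and its nuclear protein acts on the heat shock factor HSF1. The comparison asks which stretches of the IER5 mRNA are recovered with PUM2 from fixed cells.

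The immunoprecipitates held 15986799 to 17727926 reads and the Input libraries 29433144 to 35092298. IER5 tiles took 461513 to 497937 of the immunoprecipitate reads and 787864 to 971378 of the Input reads. Levels are given as CPM, the count scaled to library size after TMM scaling, and the test of each tile is the quasi-likelihood F test of edgeR across all 1563 tested tiles of the pool, with a Benjamini-Hochberg adjusted p under 0.05 as a call. Reads were amplified by PCR and no molecular identifiers are given, so the spread between libraries, and not the read number, is the error used.

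A pair of neighbouring tiles, IER5:26 and IER5:27, had the highest fold changes among the called IER5 tiles. IER5:26 rose 12.7-fold over Input and IER5:27 rose 6.31-fold. Next to them IER5:25 was 3.37-fold higher, while IER5:28 was not called and lay at 0.587 of its Input level. A weaker pair, IER5:46 and IER5:47, rose 1.99-fold and 2.33-fold, and IER5:22 rose 1.46-fold. IER5:1, IER5:37 and IER5:40 fell. Of the 53 tiles 50 could be tested, and 6 of them were called higher, 3 lower and 41 in neither direction. The share called higher, 12%, stood beside 14.1% over all tested tiles of the pool, and the share called lower, 6%, beside 4.16%, so both shares were near those of the pool.

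IER5:26 had 4727, 5812 and 4349 CPM in immunoprecipitates A, B and C, against 418, 382 and 369 CPM in Input A, B and C. The lowest immunoprecipitate lay far above the highest Input library. The log2 fold change was 3.67 ± 0.14 (SE, n = 3 against 3), with an adjusted p of 8.71e-07 in edgeR. By reads, 232394 immunoprecipitate reads stood against 40531 Input reads. Among all tested tiles of the pool IER5:26 ranked 730 by Input level and 12 by immunoprecipitate level, 43 by fold change and 11 by p-value.

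IER5:27 had 1839, 2208 and 1639 CPM in the immunoprecipitates, against 303, 286 and 312 CPM in Input. Here too the groups did not overlap. The log2 fold change was 2.66 ± 0.15 (SE, n = 3 against 3), with an adjusted p of 4.95e-06 in edgeR. IER5:26 had 2.57, 2.63 and 2.65 reads for each read of IER5:27 in immunoprecipitates A, B and C, against 1.38, 1.34 and 1.18 in Input, so within the pair the balance lay further towards IER5:26 after precipitation, in each library. This ratio was looked at after the values of both tiles were known, and no test is given. Both tiles were called in all 13 alternative fits, at an adjusted p of 7.41e-05 or less for IER5:26 and 0.000177 or less for IER5:27.

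The rise was seen across the barcodes of both tiles. All 22 barcodes of IER5:26 were higher in the immunoprecipitate, by 5.58-fold for barcode 12, the lowest, to 22.9-fold for barcode 5, the highest, with a median of 12.5-fold. All 22 barcodes of IER5:27 were higher as well, by 3.05-fold to 12.6-fold with a median of 6.14-fold. The barcode with most immunoprecipitate reads held 13.3% of the reads of IER5:26 and 10.2% of those of IER5:27, against 12.8% and 8.68% for the leading Input barcode, so no single oligonucleotide carried either value. Barcodes share their tile and their transfection, and were not used as replicates.

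IER5:25, the other neighbour of IER5:26, was scarce. It had 314, 201 and 175 CPM in the immunoprecipitates, against 55.2, 83.1 and 66.4 CPM in Input. The groups did not overlap, and the log2 fold change was 1.75 ± 0.35 (SE, n = 3 against 3; adjusted p = 0.00886 in edgeR). Fewer barcodes stood behind this value than behind those of IER5:26 and IER5:27. Of its 21 countable barcodes (those with at least 30 reads over all 6 libraries) 13 were higher, 8 had no immunoprecipitate read, and the median over barcodes of the log2 ratio, with 0.5 CPM added to both means, was 0.53. A single barcode held 26.9% of the immunoprecipitate reads of the tile. Without Input library A the call was lost (adjusted p = 0.0555 in edgeR).

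On the other side of the pair lay IER5:28. It had 183, 111 and 124 CPM in the immunoprecipitates, against 280, 193 and 239 CPM in Input. All 3 immunoprecipitates lay below all 3 Input libraries, but the log2 fold change of -0.77 ± 0.30 (SE, n = 3 against 3) missed the threshold (adjusted p = 0.127 in edgeR). It passed as lower with DESeq2 (adjusted p = 0.0454), and in edgeR with library size alone (0.0414) and without immunoprecipitate A (0.0310). IER5:24, before the enriched run, had a log2 fold change of 0.45 ± 0.57 and was not called (adjusted p = 0.667 in edgeR). The run of tiles called higher therefore held tiles 25 to 27.

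IER5:46 and IER5:47 formed the second run of tiles called higher. IER5:46 had 732, 634 and 501 CPM in the immunoprecipitates, against 298, 300.5 and 340 CPM in Input. Its log2 fold change was 0.99 ± 0.19 (SE, n = 3 against 3; adjusted p = 0.00729 in edgeR), with 17 of 22 barcodes higher, and it was called in all 13 alternative fits. IER5:47 had 312, 524 and 294 CPM in the immunoprecipitates, against 161, 165 and 158 CPM in Input. The groups of both tiles did not overlap, though the immunoprecipitates of IER5:47 ran from 294 to 524 CPM. The log2 fold change of IER5:47 was 1.22 ± 0.28 (SE, n = 3 against 3; adjusted p = 0.0167 in edgeR), with 15 of 20 countable barcodes higher. Its call was lost without any 1 of the Input libraries (adjusted p of 0.0742 to 0.0783).

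IER5:22 was an abundant tile with a small rise. It had 1823, 1712 and 1496 CPM in the immunoprecipitates, against 1121, 1155 and 1172 CPM in Input, with no overlap between groups. The log2 fold change was 0.55 ± 0.11 (SE, n = 3 against 3; adjusted p = 0.00985 in edgeR), and 17 of its 22 barcodes were higher. Without Input A or Input B the adjusted p was 0.0702 and 0.0612, and with scaling by library size alone it was 0.0714. IER5:43 and IER5:17 also had every immunoprecipitate above every Input library, at log2 fold changes of 0.85 ± 0.34 and 0.56 ± 0.23, but did not pass (adjusted p = 0.138 and 0.144 in edgeR). Both passed with DESeq2 (adjusted p = 0.0237 and 0.0358), and IER5:17 also without immunoprecipitate A (0.0263 in edgeR).

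The tiles called lower were IER5:1, IER5:37 and IER5:40. IER5:1 had 281, 321 and 417 CPM in the immunoprecipitates, against 546, 526 and 612 CPM in Input. Its log2 fold change was -0.72 ± 0.20 (SE, n = 3 against 3; adjusted p = 0.0375 in edgeR), with 6 of 22 barcodes higher. IER5:37 had 210, 113 and 208 CPM in the immunoprecipitates, against 417, 377 and 335 CPM in Input, a log2 fold change of -1.09 ± 0.29 (adjusted p = 0.0338 in edgeR). IER5:40 had 54.8, 93.9 and 56.1 CPM in the immunoprecipitates, against 171, 198 and 168 CPM in Input, a log2 fold change of -1.39 ± 0.36 (adjusted p = 0.0292 in edgeR). In none of these tiles did the groups overlap. The median over countable barcodes, with 0.5 CPM added to both means, was -0.88 for IER5:1, -2.35 for IER5:37 and -3.29 for IER5:40 on the log2 scale. Each lay further below 0 than the fitted value. In the same order, 4 of 22, 9 of 21 and 12 of 22 countable barcodes had no immunoprecipitate read. The median of IER5:40 therefore depends on the 0.5 CPM added. A barcode median below the fitted value was not particular to the tiles called lower. IER5:24, which was not called, had a fitted value of 0.45 and a barcode median of -1.67. For IER5:17, also not called, the median of 0.75 lay above the fitted value of 0.56. Without any 1 Input library, none of the 3 passed (adjusted p of 0.0860 to 0.185 in edgeR), and IER5:1 also failed without immunoprecipitate A or B (0.0535 and 0.0706) and without its barcode of most reads (0.0782).

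IER5:37 and IER5:40 lay in a stretch of low values. Over 5 consecutive tile numbers that could all be tested, the lowest mean log2 fold change was -1.06, for tiles 36 to 40, and tiles 36 to 41 were each below 0. IER5:39 had 31.8, 65.0 and 10.0 CPM in the immunoprecipitates, against 143, 125 and 80.5 CPM in Input. At -1.71 ± 0.71 it was the lowest tested IER5 tile by fold change, but it was not called (adjusted p = 0.151 in edgeR). It passed with DESeq2 (adjusted p = 0.0320) and without immunoprecipitate B (0.0477 in edgeR). IER5:20 was the next lowest tile that was not called (-0.88 ± 0.45, adjusted p = 0.240 in edgeR). Its immunoprecipitates held 120, 492 and 453 CPM, against 682, 660 and 620 CPM in Input, so library A lay well below the others of its group, and without it the adjusted p was 0.0472 at a log2 fold change of -0.45.

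The highest window of 5 tile numbers, 46 to 50, had a mean log2 fold change of 1.89 over its 4 tested tiles. The other tiles of the window, IER5:46, IER5:47 and IER5:50, lay at 0.99, 1.22 and 0.15, while IER5:48 had the highest fitted log2 fold change of the mRNA (5.20 ± 2.44) and was not called (adjusted p = 0.199 in edgeR). IER5:48 had 0, 16 and 434 reads in the immunoprecipitates, against 9, 1 and 16 reads in Input, and 96.4% of its immunoprecipitate reads came from 1 barcode. IER5:42 was also scarce, with 668, 277 and 291 reads in the immunoprecipitates, against 101, 18 and 412 in Input. In CPM these were 41.7, 19.1 and 17.5 against 3.18, 0.532 and 10.6, so the groups did not overlap. Its log2 fold change of 2.45 ± 1.33 did not pass (adjusted p = 0.266 in edgeR). The window of tiles 23 to 27, which holds the enriched run, had a mean of 1.66 with 3 calls. It was the highest of the windows in which all 5 tiles could be tested.

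The 3 most abundant IER5 tiles in Input were not called. IER5:13 averaged 2768 ± 304 CPM in the immunoprecipitates and 2657 ± 129 CPM in Input (SD, n = 3 each), a log2 fold change of 0.06 ± 0.11. IER5:3 averaged 2320 ± 257 CPM in the immunoprecipitates and 2476 ± 197 CPM in Input, and IER5:21 averaged 1493 ± 602 CPM in the immunoprecipitates and 1783 ± 148 CPM in Input. The groups of these 3 tiles overlapped (adjusted p of 0.581 to 0.763 in edgeR).

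Across the 50 tested tiles the median log2 fold change was 0.04, against -0.06 over the pool, with 26 tiles above 0 and 24 below. The libraries did not overlap for 9 tiles that were higher in the immunoprecipitate (18%, against 19.7% of the pool) and for 8 that were lower (16%, against 20.6% of the pool). The uncalled tiles ran from -1.71 to 5.20. Scaling by library size alone shifted the median of the pool by -0.23 and gave 198 tiles higher and 227 lower in place of 220 and 65. For IER5 this scaling gave 5 higher and 5 lower, and 18 of 50 tiles above 0, so the sign of tiles near 0 follows the scaling; the directions of the 9 called tiles did not change.

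The 3 tiles that failed the filter on low counts were scarce in Input already. IER5:11 had 3 immunoprecipitate reads and 1 Input read in all. IER5:49 had no immunoprecipitate read, against 26, 11 and 18 reads in Input A, B and C. No fold is given, since tiles with more Input reads could also be absent from an immunoprecipitate. IER5:5, with 2889 Input reads, had no read in immunoprecipitate B. IER5:53 also had no immunoprecipitate read, and 109 of its 112 Input reads fell in library A, so no fold is given for it either. IER5:52, which passed the filter, had reads in 1 immunoprecipitate only.

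Fewer barcodes of the IER5 tiles were read after precipitation. Of the 1166 barcodes, 545, 543 and 608 had a read in immunoprecipitates A, B and C, against 1010, 995 and 1012 in Input. As shares these were 48.5 ± 3.17% in the immunoprecipitates and 86.2 ± 0.797% in Input (SD, n = 3 each), a difference of -37.8 percentage points (exact two-sided permutation test, p = 0.10, the smallest that 3 against 3 libraries allow). Thinning every library to the depth of the shallowest left the difference at -37.1 points. The whole pool had 48.5% to 53.2% of its barcodes read in the immunoprecipitates, against 90.6% to 90.8% in Input. A barcode was mostly either absent or well covered: of 3498 pairs of a barcode and an immunoprecipitate library, 1802 held no read, 69 held 1 to 9 reads and 1443 held at least 100, against 481, 122 and 2510 of the Input pairs.

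Tiles of like Input level differed in this loss. IER5:26 had no read in 1 of its 66 pairs of barcode and immunoprecipitate, and 21 of its 22 barcodes were read in all 3 immunoprecipitates. IER5:37, at 376 CPM in Input beside 390 CPM for IER5:26, had no read in 50 of 66 pairs, and 1 of its barcodes was read in all 3. IER5:29, at 408 CPM in Input and with a log2 fold change of -0.04 ± 0.22, had no read in 37 of 66. IER5:40, at a lower Input level of 179 CPM, had none in 55 of 66, and 12 of its 22 barcodes were read in no immunoprecipitate. When a barcode of IER5:40 was read it held a median of 338 raw reads in an immunoprecipitate, against 240.0 in Input. These counts are not scaled for the greater depth of the Input libraries. Of all 1166 barcodes 336 were read in all 3 immunoprecipitates and 357 in none, against 952 and 106 in Input. The spread of IER5 levels was wider after precipitation as well: the SD of log2(CPM + 2) between libraries had a median of 0.44 over tiles in the immunoprecipitates and 0.11 in Input, and it was larger in the immunoprecipitates for 47 of 50 tiles. Barcode loss and fold changes were computed from the same immunoprecipitate reads, so the loss is not separate evidence for the calls. The part of this barcode loss in the fold changes was not tested.

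Summed over all of its tiles, IER5 took 2.85%, 2.89% and 2.81% of the reads of immunoprecipitates A, B and C, against 2.68%, 2.64% and 2.77% in Input. The groups did not overlap, but the difference was 0.15 percentage points (exact two-sided permutation test, p = 0.10, the smallest possible). With each tile's barcode of most reads left out, the difference was 0.13 points (p = 0.20 in the same permutation test). IER5:26 alone made up 15.2%, 18.3% and 14.5% of the IER5 reads in the immunoprecipitates, against 1.68%, 1.55% and 1.48% in Input, and IER5:27 made up 5.93%, 6.93% and 5.48% in the immunoprecipitates, against 1.22%, 1.16% and 1.25% in Input. Without these 2 tiles, left out after their values were seen, IER5 took 2.24%, 2.16% and 2.25% of the immunoprecipitate reads, against 2.60%, 2.56% and 2.69% of the Input reads. The other 51 tiles together thus took a lower share of the raw reads in the immunoprecipitates than in Input. These shares carry no TMM scaling. The TMM factors were 0.918, 0.907 and 0.940 in immunoprecipitates A, B and C, against 1.08, 1.07 and 1.11 in Input. They raise CPM in the immunoprecipitates and lower it in Input, so the lower raw share does not show a fall in CPM.

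Other source RNAs are set beside IER5 by counts alone, with no test of the difference. Over the pool 14.1% of tested tiles were called higher and 4.16% lower, against 12% and 6% for IER5. NORAD, a noncoding RNA with many Pumilio sites, had 27 of 66 tested tiles called higher (40.9%) and 1 lower. PIM1, the mRNA of an inducible kinase, had 5 of 31 higher (16.1%, near the pool share), with its highest tile at a log2 fold change of 2.36. TUBA1B, a tubulin mRNA, had 1 of 20 higher (5%) and 4 lower (20%). The median log2 fold changes were 0.04 for IER5, 0.32 for NORAD, 0.10 for PIM1 and -0.19 for TUBA1B.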

How the data were processed

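The authors deposited 1 table of raw read counts per tile and barcode for the PUM2 pool, per the file headers, from single-end amplicon sequencing per the labels' protocols. The program that assigned reads is not given in the sources used here. All 6 columns were placed in the immunoprecipitate or Input group by name (0 left unmatched). Counts were summed over the 22 barcodes of a tile, filtered with filterByExpr, scaled by TMM and tested with edgeR 4.0.16 in R 4.3.3 (quasi-likelihood F test, robust, Benjamini-Hochberg over all 1563 tested tiles). Standard errors were derived from the log2 fold change and F. DESeq2 1.42.0 was an alternative. The fit was checked on simulated counts, drawn with the same spread in both groups. The real immunoprecipitates were spread more widely than Input, so the check does not cover that difference. Every IER5 tile is counted, but not every tile is named. Tiles named in full are those called, the neighbours of the highest call, the 2 highest and 2 lowest uncalled, the 3 of most Input reads and those failing the filter. Tiles beside these (IER5:17, IER5:24, IER5:28, IER5:29, IER5:43, IER5:50 and IER5:52, and IER5:5, IER5:6 and IER5:32 for their errors) were added after their values were seen. Members and lists were chosen with earlier results of these data known. Libraries within a group differed beyond sampling noise (chi-square per degree of freedom of 71.6 or more). No label states separate cultures for the replicates; the spread that p-values rest on may therefore be technical. The other 4 pools were not used here.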

Additional observations from a re-analysis of the deposited data

How the results depend on the processing

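IER5:26, IER5:27 and IER5:46 were called higher in all 13 alternative fits. The number of IER5 tiles called higher ran from 3 to 7 with 1 library left out, and was lowest without Input A; it was 8 with DESeq2, against 6. The number called lower was 3 and became 5 with library size alone, 6 with DESeq2 and 0 to 6 with 1 library left out, with 0 in edgeR whenever an Input library was missing, where 3, 4 and 3 tiles had an unadjusted p under 0.05 without Input A, B and C; DESeq2 was not run on these subsets. For the whole pool the 65 tiles called lower became 227 with library size alone, 169 with DESeq2, 35 when at least 2-fold was required and 12 to 146 with 1 library left out. Tiles near 0 changed sign. With 1 library left out IER5:3 ran from -0.13 to 0.0094, IER5:13 from -0.0066 to 0.14 and IER5:21 from -0.59 to 0.026, and IER5:13 was at -0.18 with library size alone; none of these passed. The cause of these changes was not tested. The letters A, B and C were not used as pairs in the main fit. Same-letter deviations correlated at -0.05 to 0.02 over 1563 tiles, so no pairing was seen. The wider spread of the immunoprecipitates could hide one, so whether the letters pair the libraries is not known. The fit with a replicate block called the same 6 and 3 IER5 tiles. No alternative changed the direction of a called tile. Some further tiles were called in single alternatives or a few. IER5:30 was called lower with library size alone, with DESeq2 and without immunoprecipitate A. IER5:36 was called lower without immunoprecipitate A and IER5:19 without immunoprecipitate B. Without immunoprecipitate C, IER5:34 was called higher and the scarce tiles IER5:49 and IER5:52 lower. Standard errors were widest, at 1.33 to 2.44, for IER5:6, IER5:42, IER5:48 and IER5:52, with 26 to 531 Input reads, and for IER5:5 and IER5:32, with 2889 and 7985 Input reads and no read in immunoprecipitate B.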
